A study of Mus musculus with 12 samples.

Results

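The 41 genes described here carry fatty acids into mitochondria and oxidise them, admit pyruvate to the citric acid cycle, run that cycle, or regulate these steps. They were listed by name from the pathway, with earlier results of these data known, and each was represented by its probe with the highest mean signal. A probe was found for 39 of the 41, and 37 lay above background on at least 5 of 12 arrays and were tested among the 10787 genes measured. Acsl1 (a long-chain acyl-CoA synthetase) and Hadha (the alpha subunit of the mitochondrial trifunctional protein) were not analysed here.

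The study compared mouse tongue tumours with normal tongue on Illumina bead arrays, 1 array for each of 12 tissue pieces, in B6 mice whose age is given as 8 months. The 5 normal tongues came from control mice that received DMSO for 8 weeks. The 7 tumours came from mice that received 4NQO, a nitroquinoline that damages DNA, at 200 µg/mL together with arecoline, an alkaloid of areca nut, at 500 µg/mL for the same 8 weeks. All animals were then left for 20 weeks. Normal tongue is a mixed tissue of muscle and epithelium, the labels do not say how much of each a piece held, and they do not say whether pieces came from separate animals. The p-values therefore measure only the spread between these pieces. In bulk samples, fewer cells of a type and less RNA per cell cannot be told apart.

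Long-chain fatty acids are bound in the cytosol by small carriers such as Fabp3, are handed to carnitine by Cpt1 enzymes, cross the inner membrane through Slc25a20 and are shortened by the enzymes of beta-oxidation. The acetyl-CoA made there, and that made from pyruvate by the pyruvate dehydrogenase complex, enters the citric acid cycle at citrate synthase, and electrons from both routes feed the respiratory chain. Skeletal muscle and heart rely heavily on this pathway, and muscle has its own forms of several enzymes, including Cpt1b.

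Of the 37 members measured, 36 were lower in the tumours and none was higher (limma, Benjamini-Hochberg adjusted p under 0.05). At an unadjusted p under 0.05, and by an exact rank-sum test, the number higher was also 0. In the same test 23.6% of all genes were lower and 32.5% were higher. The median log2 change of the members, tumour minus normal, was -1.72, against 0.07 over all genes. A fall of at least 2-fold was called for 33 members, against 9.22% of all genes, and a fall of at least 4-fold for 13, against 3.28% of all genes. In 36 members every tumour lay below every normal tongue, which held for 16.9% of all genes. The 1 member neither called lower nor separated between the groups was Idh3b, a subunit of the NAD-dependent isocitrate dehydrogenase. For 3 members (Sucla2, Ppargc1a and Ucp3) the probe was above background on fewer than 5 tumour arrays, so that the normal tongues alone admitted them. The filter thus required these 3 to be higher in normal tongue, and their calls carry no support. The counts of 2-fold and 4-fold falls above include Ppargc1a and Ucp3, and the count without overlap and the median include all 3. Of the 34 that were above background on at least 5 tumour arrays, 33 were lower. With no filter on dim probes, 37 of the 39 members with a probe were lower, against 16.5% of all genes. The members this adds, Cpt1a and Ppara, were above background on 0 of 7 tumour arrays, so a call on either carries no support.

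**Figure D1:**
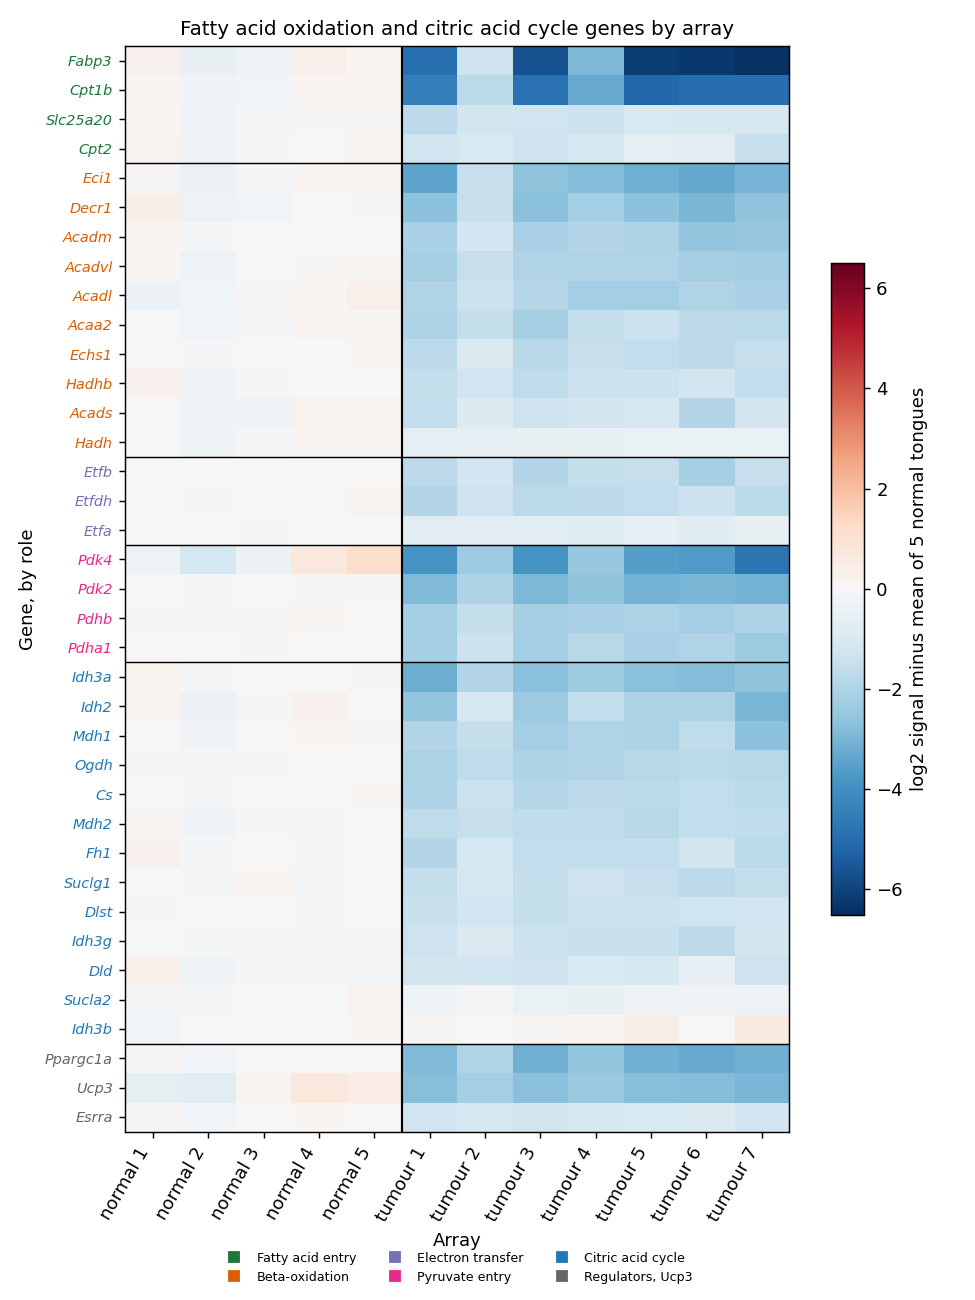
Log2 signal of each measured member on each of the 12 arrays, shown as the difference from its mean in the 5 normal tongues, with members ordered by role. Tumour values lie below the normal mean in every row except Idh3b, and tumour 2 is the least reduced in 28 rows.

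**Figure D2:**
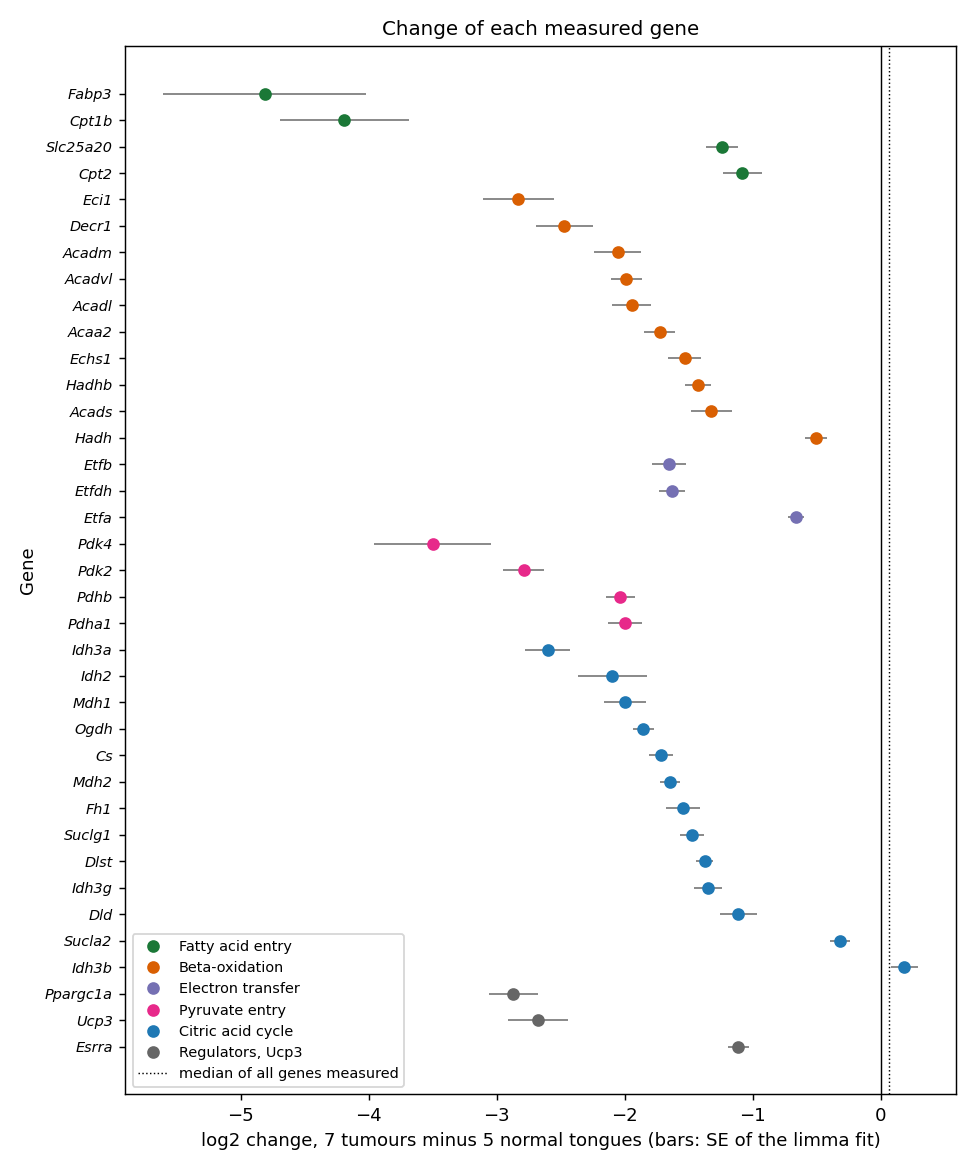
Log2 change (7 tumours minus 5 normal tongues) of the 37 measured members, coloured by role, with bars for the SE of the limma fit and a dotted line at the median of all genes measured. Changes run from -4.81 (Fabp3) to 0.18 (Idh3b), the 1 member to the right of 0.

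Promoter sequence is printed for 5 members that stand for the contrasts described below. They are Acadm and Etfdh, Ucp3, and the isocitrate dehydrogenase subunits Idh3b and Idh3g, which changed unequally. The RefSeq table of the GRCm38.p6 build held 37 of the 41 listed genes, and the 250 bases before each gene's start were searched on both strands. The motifs were TCAAGGTCA, TNAAGGTCA and AAGGTCA for the estrogen-related receptors (the last is contained in the others) and CAGCTG for muscle E-box factors. They also included the direct repeat of nuclear receptor pairs (2 copies of AGGTCA 1 base apart), the NRF1 site (GCGCA and GCGC 1 base apart) and the MEF2 core (CTA and TAG 4 bases apart). AAGGTCA was found in 1 member, Acadm, and in 4.7% of the 27025 genes of the table. The NRF1 site was found in 4 members (10.8%), Etfb, Etfdh, Sucla2 and Ppara, and in 4.23% of genes. CAGCTG was found in 4 members (10.8%), Cpt1a, Acsl1, Dld and Ucp3, and in 14.7% of genes. No member matched TCAAGGTCA (0.422% of genes), TNAAGGTCA (1.3%), the direct repeat (0.0407%) or the MEF2 core (3.7%). The median GC content of these windows was 59.6% in members and 52% over all genes. A match or its absence describes these letters in this window only. The sequences run 5′ to 3′ on the gene's strand, and capitals mark the matched letters (in Acadm the match lies on the opposite strand).
Acadm, chr3:153944644-153944893, minus strand, AAGGTCA match: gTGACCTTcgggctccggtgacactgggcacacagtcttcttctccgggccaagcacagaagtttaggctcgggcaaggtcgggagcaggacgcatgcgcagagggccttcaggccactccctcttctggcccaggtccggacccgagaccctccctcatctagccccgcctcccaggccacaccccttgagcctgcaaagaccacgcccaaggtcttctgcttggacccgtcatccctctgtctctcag
Etfdh, chr3:79628768-79629017, minus strand, NRF1 site match: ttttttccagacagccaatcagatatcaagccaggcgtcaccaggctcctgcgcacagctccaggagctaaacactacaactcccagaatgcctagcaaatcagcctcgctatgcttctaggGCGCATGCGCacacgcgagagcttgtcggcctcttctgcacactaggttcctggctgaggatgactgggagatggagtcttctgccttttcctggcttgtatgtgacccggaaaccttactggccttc
Ucp3, chr7:100472741-100472990, plus strand, CAGCTG match: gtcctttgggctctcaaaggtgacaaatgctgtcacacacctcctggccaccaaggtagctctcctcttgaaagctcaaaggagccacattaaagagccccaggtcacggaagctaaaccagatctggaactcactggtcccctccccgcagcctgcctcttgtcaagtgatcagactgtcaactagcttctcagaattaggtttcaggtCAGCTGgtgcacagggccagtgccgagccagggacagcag
Idh3b, chr2:130284452-130284701, minus strand, no motif matched: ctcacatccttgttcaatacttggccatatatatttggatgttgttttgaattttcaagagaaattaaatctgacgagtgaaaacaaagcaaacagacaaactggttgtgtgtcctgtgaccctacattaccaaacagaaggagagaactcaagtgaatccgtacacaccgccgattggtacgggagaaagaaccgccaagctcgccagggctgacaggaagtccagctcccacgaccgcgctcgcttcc
Idh3g, chrX:73786898-73787147, minus strand, no motif matched: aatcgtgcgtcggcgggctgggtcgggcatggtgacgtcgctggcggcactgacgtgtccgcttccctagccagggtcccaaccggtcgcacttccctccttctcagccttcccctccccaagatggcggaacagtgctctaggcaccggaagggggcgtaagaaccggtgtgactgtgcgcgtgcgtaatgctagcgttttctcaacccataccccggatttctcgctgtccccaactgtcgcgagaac

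All 4 measured genes of fatty acid binding and carnitine-dependent entry were lower, with a median log2 change of -2.72 that spans very unequal changes. Fabp3, the fatty acid binding protein of heart and skeletal muscle, had log2 signals of 13.73, 12.96, 13.15, 13.76 and 13.56 in normal tongues 1 to 5. In the tumours its lowest, median and highest signals were 7.02, 7.76 and 12.09. The groups did not overlap, but tumour 2, the highest, lay within 0.87 of the lowest normal tongue, while tumour 7 was the lowest. Fabp3 was 28.1-fold lower in the mean (log2 change -4.81, SE 0.79, limma adjusted p = 0.000206). Cpt1b (probe ILMN_1227666), the muscle form of the enzyme that commits fatty acids to mitochondrial entry, read 12.33, 11.88, 11.96, 12.23 and 12.24 in the normal tongues. Its lowest, median and highest tumour signals were 7.04, 7.27 and 10.37, again with tumour 2 highest and no overlap. Cpt1b was 18.3-fold lower (log2 change -4.19, SE 0.51, adjusted p = 1.56e-05). A second probe of the gene, above background on only 3 of 7 tumour arrays, gave -3.24. The spread among tumours was wide for both genes, with a range of 5.06 for Fabp3 and 3.33 for Cpt1b on the log2 scale.

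Cpt1a, the form of the same enzyme best known from liver, gave no comparison. Its signals were 6.25, 6.23, 6.36, 6.48 and 6.20 in the normal tongues and ran from 6.09 to 6.41 in the tumours, above background on 1 normal array and on 0 of the 7 tumour arrays. The groups overlapped, and no fold was computed at this filter. The later steps of entry had smaller changes. Slc25a20, the carnitine-acylcarnitine carrier, changed by -1.24 (SE 0.12), from 11.79 ± 0.16 (SD, n = 5) to 10.55 ± 0.25 (SD, n = 7). Cpt2, which returns the acyl group to CoA inside the mitochondrion, changed by -1.08 (SE 0.15, limma adjusted p = 5.56e-05), the smallest change of this set.

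All 10 measured enzymes of the beta-oxidation spiral and its side reactions were lower, with changes from -2.83 to -0.50 and a median of -1.84. Eci1, an enoyl-CoA isomerase needed for unsaturated fatty acids, read 11.89, 11.45, 11.74, 11.97 and 11.98 in the normal tongues. In the tumours its lowest, median and highest signals were 8.39, 8.79 and 10.32, and tumour 2 stood above the next tumour (9.17) without reaching the normal range. It was 7.12-fold lower (log2 change -2.83, SE 0.28, limma adjusted p = 2.54e-06). Decr1, the dienoyl-CoA reductase that also serves unsaturated fatty acids, was 5.56-fold lower (-2.47).

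The acyl-CoA dehydrogenases, which take the first oxidative step at different chain lengths, were each lower. Acadm, for medium chains, fell from 13.50 ± 0.07 (SD, n = 5) to 11.45 ± 0.44 (SD, n = 7), a change of -2.06, and its other probe gave -2.40. Acadvl, for very long chains, changed by -1.99, Acadl, for long chains, by -1.95 (SE 0.15), and Acads, for short chains, by -1.33 (SE 0.16). The fall of Acadl exceeded that of Acads by 0.62 (exact permutation test over all splits of the arrays, two-sided, p = 0.0139, adjusted p = 0.0278 over 8 pairs). Leaving out 1 array at a time kept this difference between -0.72 and -0.55, and it passed the threshold in 8 of 12 such repeats. It was lost without normal 3, normal 4, normal 5 or tumour 3 (adjusted p between 0.052 and 0.0545).

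The remaining steps of the spiral were lower as well. Acaa2, the thiolase of the last step, changed by -1.73, Echs1, an enoyl-CoA hydratase, by -1.53, and Hadhb, the beta subunit of the trifunctional protein, by -1.43. Hadh, the 3-hydroxyacyl-CoA dehydrogenase for shorter chains, fell least. It read 7.56, 7.30, 7.53, 7.77 and 7.74 in the normal tongues, and its lowest, median and highest tumour signals were 6.95, 7.10 and 7.17. These groups were separated by 0.13, and the change was -0.50 (SE 0.09, limma adjusted p = 0.000262).

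The 3 genes that pass electrons from the dehydrogenases to the respiratory chain fell unequally. Etfb, the beta subunit of the electron transfer flavoprotein, fell from 13.34 ± 0.03 (SD, n = 5) to 11.69 ± 0.31 (SD, n = 7), a change of -1.66. Etfdh, the membrane oxidoreductase that receives the electrons and whose promoter is printed above, changed by -1.63. Etfa, the partner subunit of Etfb, read 13.87, 13.81, 13.91, 13.87 and 13.82 in the normal tongues, with lowest, median and highest tumour signals of 13.07, 13.18 and 13.38. Every tumour was below every normal tongue, yet the change of Etfa was only -0.66 (SE 0.06, limma adjusted p = 2.53e-06). Its other probes gave -0.88, -1.06 and -0.77.

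All 4 genes at the entry of pyruvate were at least 4-fold lower, the enzyme's subunits and its kinases alike. Pdha1 and Pdhb encode the subunits of the first enzyme of the pyruvate dehydrogenase complex. Pdha1 changed by -2.00 (SE 0.13) and Pdhb by -2.03 (SE 0.11), and their changes differed by -0.03 (exact permutation p = 0.753). On single tumours the difference between these subunits, relative to the normal mean, ran from -0.27 to 0.31. A second probe of Pdhb gave -1.36, and with the mean over probes Pdhb fell less than Pdha1, by 0.31 (adjusted p = 0.0283). Pdk2 and Pdk4 encode kinases that switch the complex off. Pdk2 (probe ILMN_2737658) was even across normal tongues, at 9.49, 9.40, 9.48, 9.55 and 9.54, and its tumour signals ran from 6.41 through a median of 6.58 to 7.46, with tumour 2 highest and 5 of 7 tumours above background. It was 6.92-fold lower (log2 change -2.79, SE 0.16, limma adjusted p = 5.66e-08). Pdk4, which rises on fasting in muscle, varied most among the normal tongues, at 11.56, 10.76, 11.54, 12.59 and 13.04. Its tumour signals ran from 7.13 through 8.20 to 9.54, all below the lowest normal tongue. Pdk4 was 11.3-fold lower (log2 change -3.50, SE 0.46, adjusted p = 2.96e-05). The changes of the kinases differed by -0.71 (exact permutation p = 0.125, adjusted p = 0.143), within the spread of the normal tongues, which ran from -1.05 to 1.09 around their mean for this difference.

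Of the 13 citric acid cycle genes, 12 were lower and Idh3b was not called, with a median change of -1.54. The 12 include Sucla2, whose call carries no support because the normal tongues alone admitted it. Citrate synthase (Cs), the entry enzyme, fell from 12.70 ± 0.09 (SD, n = 5) to 10.99 ± 0.19 (SD, n = 7), a change of -1.72 (SE 0.09). The 3 measured components of the 2-oxoglutarate dehydrogenase complex fell by 1.85 (Ogdh, SE 0.08), 1.37 (Dlst, SE 0.07) and 1.11 (Dld, SE 0.14). Dld also serves the pyruvate dehydrogenase complex. Ogdh and Dlst were among the steadiest members over tumours, with ranges of 0.42 and 0.30, and their falls were several times that range.

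The subunits of the NAD-dependent isocitrate dehydrogenase, which form 1 enzyme, did not change together. Idh3a, the catalytic subunit, read 12.44, 12.10, 12.24, 12.23 and 12.17 in the normal tongues, and its lowest, median and highest tumour signals were 9.09, 9.51 and 10.36. The groups were 1.74 apart, and Idh3a was 6.07-fold lower (log2 change -2.60, SE 0.18, limma adjusted p = 1.40e-07). Idh3g, a regulatory subunit, read 13.48, 13.37, 13.41, 13.55 and 13.53 in normal tongues and 11.76, 12.09 and 12.54 as lowest, median and highest in tumours. It was lower without overlap (-1.35, SE 0.11, adjusted p = 6.22e-07), and a second probe gave -1.88. Idh3b, the remaining subunit, read 10.74, 10.91, 10.88, 10.94 and 11.05 in normal tongues, and the tumours ran from 10.92 through 10.99 to 11.49. These groups overlapped, and the change of 0.18 (95% confidence interval -0.05 to 0.42, adjusted p = 0.155) did not pass the test. The sign of the Idh3b change depended on the scaling. Centring the arrays on reference genes gave -0.32 (adjusted p = 0.0169), and the deposited values as they stand gave 0.26 (adjusted p = 0.0394). Idh3a fell further than Idh3g by 1.25 (exact permutation p = 0.00126, the smallest that these splits can give, adjusted p = 0.00505), and every tumour showed it, between -1.79 and -0.86 relative to the normal mean.

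Idh2, the NADP-dependent mitochondrial form, changed by -2.10 (SE 0.27), from 11.66 ± 0.28 (SD, n = 5) to 9.56 ± 0.62 (SD, n = 7). The change of Idh3a minus that of Idh2 was -0.50, which missed the threshold (exact permutation p = 0.0379, adjusted p = 0.0505 over 8 pairs). Mdh1, the cytosolic malate dehydrogenase, changed by -2.00 (SE 0.16) and Mdh2, the mitochondrial one, by -1.65 (SE 0.08). The difference of -0.35 (exact permutation adjusted p = 0.0444) rested on the choice of probe. Further probes of Mdh1 gave -0.61, with no tumour array above background, and -1.04, and the mean over probes turned the difference to 0.43 (adjusted p = 0.00253). Suclg1, the shared alpha subunit of succinyl-CoA ligase, changed by -1.48, and fumarase (Fh1) by -1.54.

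Sucla2, the subunit that makes succinyl-CoA ligase specific for ADP, was dim. It read 6.54, 6.59, 6.60, 6.62 and 6.90 in the normal tongues and 6.16, 6.34 and 6.51 as lowest, median and highest in the tumours, above background on 1 of 7. The groups were 0.03 apart, and the change was -0.32 (SE 0.08, limma adjusted p = 0.00427). Suclg2, the GDP-specific subunit and not a member, changed by -0.70 (SE 0.11). The difference of 0.38 (exact permutation adjusted p = 0.0278) cannot be read as a smaller fall of Sucla2, because background bounds its tumour signal. It missed the threshold with the deposited values (0.27) and with centring on the 75th percentile or on reference genes (0.31 in both). It also did so without normal 1, 3 or 4 or without tumour 1 or 3 (between 0.30 and 0.40).

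**Figure D3:**
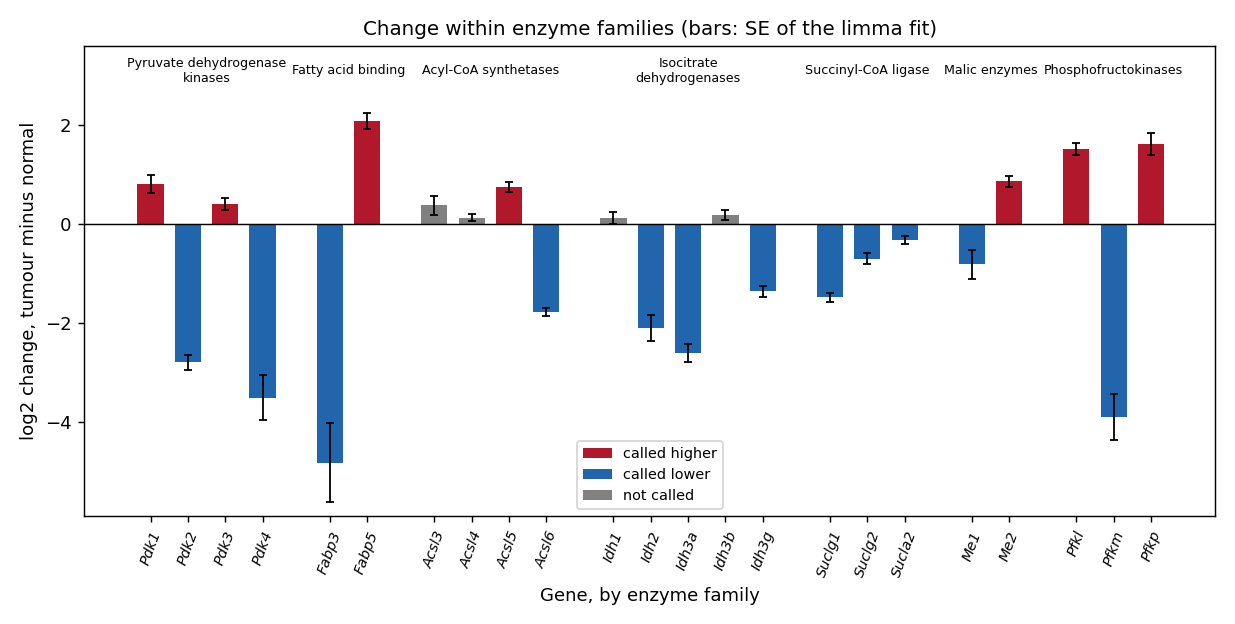
Log2 change (tumour minus normal) of members and their relatives, grouped by enzyme family, with bars from 0, whiskers for the SE of the limma fit and colour for the call. Idh3a, Idh3g and Idh3b differ (-2.60, -1.35 and 0.18), and Fabp3 (-4.81) and Fabp5 (2.08) lie on opposite sides of 0.

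Of the 3 measured regulators, Esrra alone was above background on every tumour array, and it was lower. The normal tongues alone admitted Ppargc1a and Ucp3, so their calls as lower carry no support. Ppargc1a (probe ILMN_2710139), a coactivator of mitochondrial biogenesis, read 9.35, 9.10, 9.29, 9.29 and 9.31 in the normal tongues. Its tumour signals ran from 6.01 through 6.14 to 7.31, and the probe was above background on 2 of 7 tumour arrays. The change was -2.87 (SE 0.19, limma adjusted p = 1.41e-07). Most of its tumour values lie at background, so the size of this fall is not resolved beyond it. Esrra, the estrogen-related receptor that PGC coactivators bind, read 11.31, 11.06, 11.25, 11.39 and 11.27 in normal tongues and 9.97, 10.15 and 10.31 as lowest, median and highest in tumours. It changed by -1.11 (SE 0.08, adjusted p = 2.21e-07), with a tumour range of only 0.35 and no overlap. Ucp3, a mitochondrial carrier of muscle, read 8.19, 8.11, 8.89, 9.49 and 9.27 in normal tongues and ran from 5.83 through 6.00 to 6.58 in tumours, above background on 1 of 7. Its change was -2.68 (SE 0.24, adjusted p = 1.07e-06), with the same limit as for Ppargc1a. Ppara, a nuclear receptor for fatty acids, was above background on 3 of 5 normal and 0 of 7 tumour arrays, and no fold was computed at this filter. The normal signals of Ppara were 6.56, 6.28, 6.52, 6.41 and 6.59 and its tumour signals ran from 6.11 to 6.38, so the groups overlapped.

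**Figure D4:**
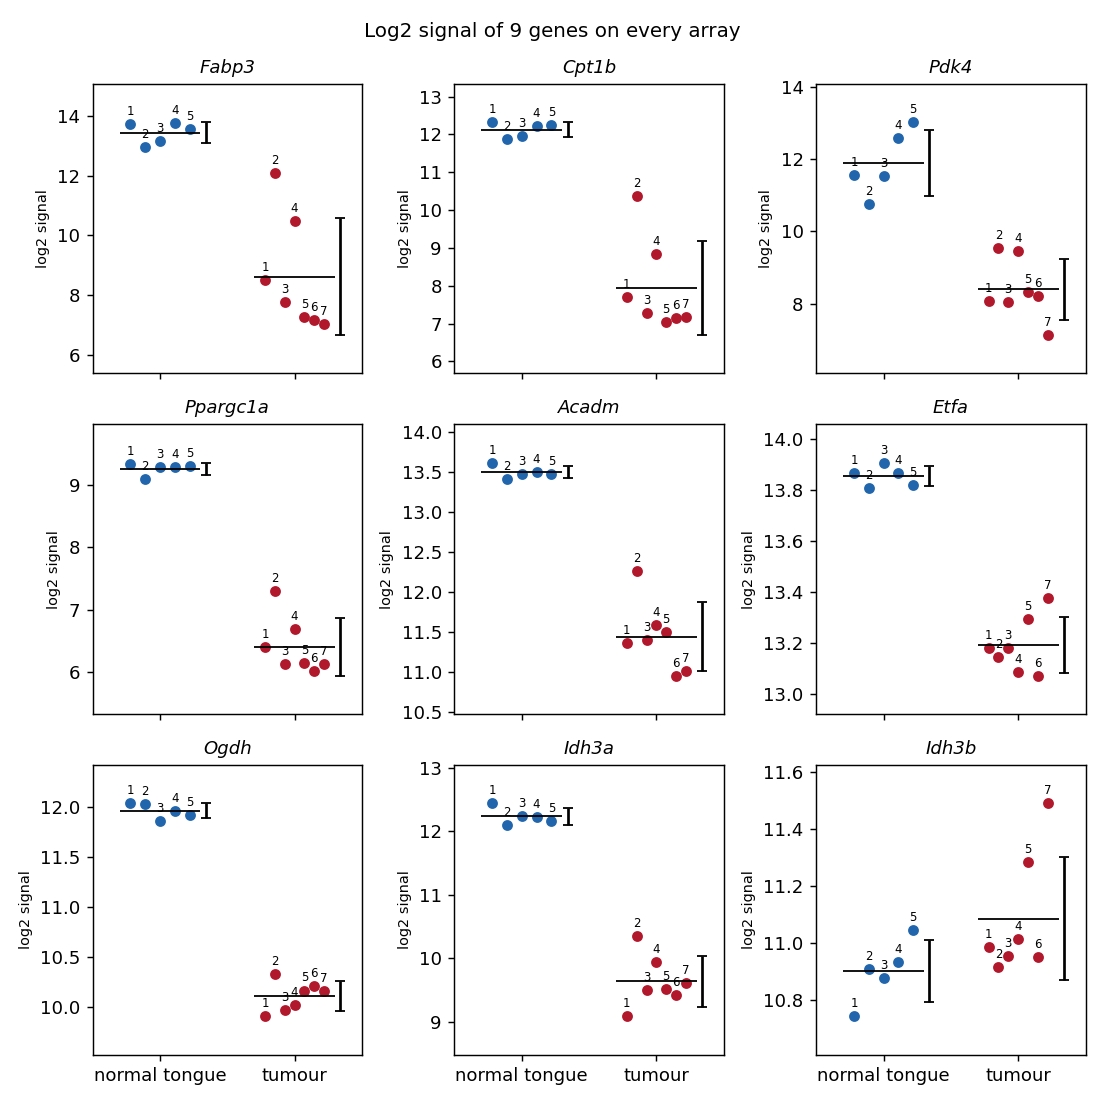
Log2 signal on every array for 9 members, with numbered points for arrays, a line for each group mean and a bar for its SD (5 normal tongues, 7 tumours); each panel has its own scale. Fabp3 and Cpt1b spread widely over the tumours, Etfa and Ogdh by 0.30 and 0.42, and the groups of Idh3b overlap.

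Kept probes that were not chosen to represent a gene gave the same direction. Of 62 probes annotated to members, 55 were kept, and 18 of these were further probes of 13 genes. All 18 were lower in the tumours. Over all genes 23.6% were lower, but that share takes each gene once, by its brightest probe. It is an unlike measure, because the 18 are further probes of genes already called lower. Some of the 18 were above background on fewer than 5 tumour arrays and needed the normal tongues to pass the filter, so their calls carry no support. They were the further probes of Cpt1b (3 of 7 tumour arrays), Ucp3 (1) and Mdh1 (0 and 4). The 7 probes not kept had no test at this filter.

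Muscle genes were lower in the same tumours. Of 32 skeletal muscle markers, 28 were measured, 24 were lower, none was higher, and their median change was -3.55. The muscle score, the mean log2 signal of these 28 genes, ran from 12.56 to 12.92 in the normal tongues. It was 9.61, 11.62, 9.03, 10.32, 8.30, 8.61 and 8.40 in tumours 1 to 7. Their summed level (log2 of the summed signal) ran from 18.66 to 18.84 in normal tongues and from 14.06 to 17.96 in tumours. The muscle markers' part in the members' falls was not tested. Markers of squamous epithelium went the other way, with 10 of 14 higher, 3 lower and a median of 0.96 (no less than 0.38 in the other scalings). Of other marker lists, 6 of 7 endothelial genes and 1 of 4 adipocyte genes were lower. Of 6 fibroblast genes, 3 were lower and 1 higher, and of 6 macrophage genes, 2 were lower and 2 higher. Among neutrophil genes, 5 of 6 were higher. Casq1 among the muscle markers and Cd163 among the macrophage genes were above background on 1 and 2 of 7 tumour arrays. The neutrophil genes Cxcr2 and S100a9 were above background on 0 and 3 of 5 normal arrays. The group with the higher signal alone admitted these genes, so their calls carry no support. Over all genes, 23.6% were lower and 32.5% higher. Salivary gland genes were uneven, with a mean of 13.13 in normal 1 and 10.82 in tumour 2. Without normal 1 and tumour 2, 34 of the 35 members then measured were lower, with a median of -1.76.

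Members differed in how far they followed the muscle score from tumour to tumour. Tumour 2 had the highest score of the tumours, and also the highest mean of the salivary gland genes. It was the highest tumour in 28 of the 37 members, against 15.5% of all genes. Over the 7 tumours, 12 members rose and 1 fell with the score at an unadjusted exact permutation p under 0.05, against 6.29% and 5.97% of all genes. No member passed after adjustment over all 10787 genes, and the lowest adjusted p of any gene was 0.069, with 0.000198 the smallest p that 5040 orders can give. The 5 members with r above 0.9 were picked out after their values were seen. They were Fabp3 (r = 0.985, exact permutation p = 0.000794, rho = 0.893, p = 0.0123), Cpt1b (r = 0.976, p = 0.000397, rho = 0.964, p = 0.00278) and Pdk2 (r = 0.968, p = 0.000198, rho = 1, p = 0.000397). Ppargc1a (r = 0.970, exact p = 0.00318, rho = 0.750, p = 0.0663) and Ucp3 (r = 0.936, exact p = 0.00496, rho = 0.857, p = 0.0238) completed the set. The probes of Ppargc1a and Ucp3 were above background on 2 and 1 of the 7 tumour arrays, so their correlations rest mostly on background values. Without tumours 2 and 4, whose scores were farthest from the median, r was 0.956 for Fabp3, 0.950 for Cpt1b, 0.908 for Pdk2, 0.779 for Ppargc1a and 0.453 for Ucp3. Across members, r was positive in 30 of 37 with a median of 0.62. Without tumours 2 and 4 it was positive in 14, with a median of -0.20, so that for most members the relation rested on those tumours.

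**Figure D5:**
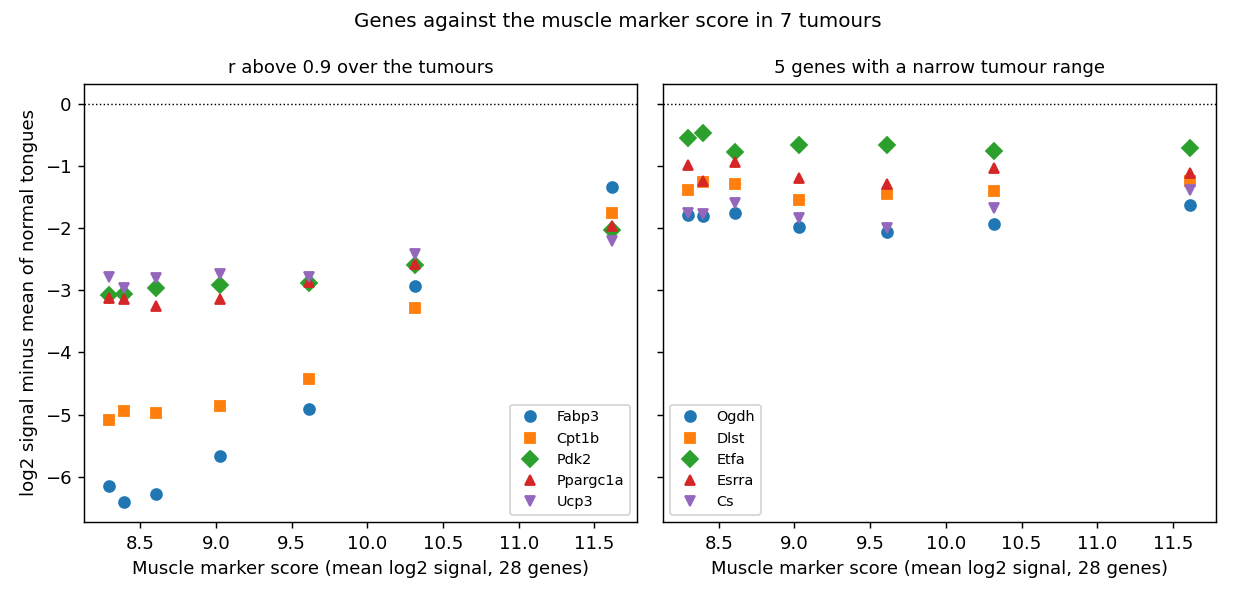
Log2 signal minus the normal mean against the muscle score (mean log2 signal of 28 muscle markers) in the 7 tumours. The 5 members at left had r above 0.9, and Fabp3 and Cpt1b climb with the score. The 5 at right were chosen by hand and are not the narrowest in tumour range. Their r ran from -0.51 (Etfa) and -0.08 (Esrra) to 0.55 (Cs). Hadh and Mdh2, not shown, had narrower ranges (0.225 and 0.293) and r of -0.765 and 0.718. All points lie below 0.

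Genes of neighbouring steps that were not members were counted by list. Of 12 measured genes of fatty acid uptake and activation, 7 were lower, 3 higher and 2 not called, with a median of -0.50. Lpl (lipoprotein lipase, -4.23), Crat (carnitine acetyltransferase, -3.07), Acss1 (mitochondrial acetyl-CoA synthetase, -2.75) and Mlycd (malonyl-CoA decarboxylase, -2.27) fell most. Fabp5, the epidermal fatty acid binding protein, rose by 2.08 on the log2 scale (SE 0.17, limma adjusted p = 4.90e-07), and Slc27a4 rose by 0.94. Both also rose under the other 4 scalings. Acsl5 was higher by 0.76, but by 0.21 and not called after centring on reference genes. The change of Fabp3 lay 6.90 below that of Fabp5 (exact permutation p = 0.00126, adjusted p = 0.00505), between -8.75 and -2.94 in single tumours.

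Other mitochondrial acyl-CoA and branched-chain genes were lower in 15 of 15, with a median of -1.13, led by Ivd (-2.05), Ech1 (-1.73), Pccb (-1.58) and Mcee (-1.42). The 15 include Acot2, above background on only 2 of 7 tumour arrays, whose call carries no support for the same reason as that of Sucla2. Of 10 genes of peroxisomal oxidation, 5 were lower, none was higher and 5 were not called, with a median of -0.21. Abcd2 (-1.19), Pex11a (-0.96), Abcd3 (-0.54) and Hsd17b4 (-0.52) fell most there. Abcd2 was above background on only 1 of 7 tumour arrays. The normal tongues alone admitted it, so its call carries no support. Over the other scalings, the number of peroxisomal genes lower ran from 4 to 8 and their median from -0.76 to -0.19.

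Among 17 other genes of the citric acid cycle and pyruvate use, 10 were lower, 3 higher and 4 not called, with a median of -0.70. Got1 (-3.05), Sdhb (-2.45), Dlat (-2.31) and Pdp1 (-2.05) fell most. Dlat and Pdp1 encode the acetyltransferase core and a phosphatase of the pyruvate dehydrogenase complex. Me2, a mitochondrial malic enzyme, was higher by 0.86, and by no less than 0.29 in the other scalings. Pdk1 was higher by 0.81, but by 0.30 and not called with reference genes. Pdk3 was higher by 0.41, by 0.24 and not called with cyclic loess, and at -0.10 with reference genes. The kinases of the same complex thus differed, with Pdk2 and Pdk4 lower in every scaling. Of the ketone genes, Oxct1 was lower (-1.05) and Bdh1 higher (0.84, but 0.35 and not called with reference genes).

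Of 13 other regulators measured, 6 were lower, 3 higher and 4 not called, with a median of -0.18. Prkaa2 (the catalytic AMP kinase subunit abundant in muscle, -2.35), Esrrb (-2.35), Sirt3 (the mitochondrial deacetylase, -1.94) and Rxrg (-1.45) fell most. Of these, Sirt3 alone was above background on every tumour array. Prkaa2, Esrrb and Rxrg were above background on only 2, 1 and 1 tumour arrays. The normal tongues alone admitted Prkaa2, Esrrb and Rxrg, so their calls carry no support. The count of 6 lower and the median include them. Nrf1 (0.70), Gabpa (0.56) and Rxra (0.50) were higher, but reached only 0.18, 0.00 and -0.07 with centring on reference genes and were then not called.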

How the data were processed

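Signals of 25697 probes on 12 arrays were taken from the authors' deposited log2 table. The base was inferred from their range, 5.05 to 15.53. BeadStudio and Partek 6.6 are named without roles, per the submitters' processing notes, and every array had the same median of 6.56, so the values had been scaled. A table with 24 columns of per-sample values was not used, because their names match no sample label, so neqc and detection p-values could not be used as planned.

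Values were returned to the linear scale, background-corrected (normexp, offset 50), quantile normalised and logged. A probe was kept if above its array's background, the mode plus 1.64 SD of the lower side, on at least 5 arrays (15702 probes, 61.1%; 14745 to 15388 per array). The number of arrays limits the precision. Groups followed the sample titles. Tumours and normals were compared with limma 3.58.1 in R 4.3.3, two-sided, adjusted by Benjamini-Hochberg over kept probes. The procedure was tested on simulated data in which both groups had the spread of the normal tongues. The wider spread of the tumours (median SD of members 0.28 against 0.15 in normal tongues) was not covered. Across genes, normal arrays correlated with each other at 0.973 to 0.997, tumour arrays at 0.923 to 0.984 and arrays of unlike groups at 0.798 to 0.909. Probes were named through the platform annotation (23978 with 1 symbol, 1719 with none), and 23962 matched RefSeq (GRCm38.p6). Differences between 8 of 11 listed pairs used exact permutation tests. The other pairs lacked a measured gene. Correlations with the muscle score were adjusted over all genes, not over members as planned. Figures used matplotlib 3.10.9 in Python 3.11.15.

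The members and lists were chosen with earlier results of these data known. Named in full were, in each role, the members with the largest and smallest change, any not called, and both genes of each pair. From lists of neighbouring pathway steps, up to 4 largest changes past the threshold and every gene called higher were named. Genes named otherwise, those of the respiratory chain and glycolysis included, were chosen after their values were seen. Alternatives were other scalings, filters, probe rules, array weights, a rank test, a replicate block and leaving out arrays. Same-numbered normals and tumours had correlated deviations of -0.13, -0.37, -0.10, 0.10 and 0.05, so the numbers were not taken as pairs.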

Additional observations from a re-analysis of the deposited data

Results flagged for a closer look

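Among 74 groups of member values (5 normal or 7 tumour arrays each), 9 held an array far from the others by Dixon's criterion. For independent groups chance gives about 1 in 20. These groups share the same arrays, so their count cannot be set against that rate. Tumour 2 was high in 5 of them. It read 8.90 for Acadl (next tumour 8.43), 10.97 for Acadvl (10.56), 10.93 for Echs1 (10.37), 10.32 for Eci1 (9.17) and 10.34 for Pdhb (9.87). Tumour 2 also had the highest muscle score of the tumours and the highest mean of the salivary gland genes (10.82). The part of either in these values was not tested. Tumour 6 was high for Dld at 8.52 (next 8.06). Among normal tongues, normal 5 was high for Sucla2 at 6.90 (next 6.62), normal 1 was high for Fh1 at 12.41 (next 12.10), and normal 2 was low for Ppargc1a at 9.10 (next 9.29).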

How the results depend on the processing

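Over 23 alternatives the 37 members gave 845 values, of which 843 kept their direction and their side of the threshold. The other 2 were those of Idh3b, which was higher with the deposited values as they stand (0.26), giving 1 member higher, and lower with reference gene centring (-0.32). That centring shifted the all-gene median to -0.49 (from 0.07) and the members' median to -2.26 (from -1.72), while their distance from it changed only from -1.78 to -1.77. It also turned the split of all genes from 23.6% lower to 64.6% lower. With 6 reference genes all called higher (median 0.62), their own stability was not shown. Leaving out 1 array at a time gave member medians from -1.76 to -1.66. The replicate block gave 36 lower, 0 higher and a median of -1.73, and the exact rank-sum test also gave 36 lower.

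Pair differences depended more on the settings. Mdh1 minus Mdh2 was -0.31 with deposited values, -0.26 with cyclic loess, -0.29 with 75th percentile and with reference gene centring, none of which passed the threshold, and 0.43 with the mean over probes. Sucla2 minus Suclg2 was 0.27 with deposited values and 0.31 with both centrings. Pdhb minus Pdha1 turned to 0.31 with the mean over probes. Idh3a minus Idh2 stayed at -0.50 and passed the threshold with no filter, with the filter requiring all arrays and with the mean over probes, where the adjustment or the other pairs' values differed. Leaving out 1 array gave ranges of -0.72 to -0.55 for Acadl minus Acads, -7.58 to -6.59 for Fabp3 minus Fabp5, -0.65 to -0.43 for Idh3a minus Idh2 (called only without tumour 7, at -0.65 with adjusted p = 0.00577), -1.32 to -1.16 for Idh3a minus Idh3g, -0.41 to -0.24 for Mdh1 minus Mdh2 (called in 4 of 12), -0.08 to 0.01 for Pdhb minus Pdha1, -0.98 to -0.44 for Pdk4 minus Pdk2 (called only without normal 2) and 0.30 to 0.45 for Sucla2 minus Suclg2 (called in 7 of 12). The causes were not tested. The number of members passing the correlation with the muscle score was 0 in each alternative run. The slide was not run as a block, because the values used name no slide. Dim probes (Cpt1a, Ppara, Sucla2, Ucp3, Ppargc1a in tumours) lie near background, which limits their values.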

Other observations

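The respiratory chain, which takes the electrons released by the members, was lower in 26 of 27 measured genes, with a median change of -1.17. The exception was Uqcrfs1, an iron-sulfur subunit of complex III, at -0.06, whose probe was above background on only 3 normal and 3 tumour arrays. Ndufs7 (-1.86) and Ndufb10 (-1.84) of complex I fell most, and Cyc1 (cytochrome c1) changed by -1.70. The ATP synthase genes Atp5o (-0.27) and Atp5b (-0.40) fell least among those called, and Atp5o was not called with the deposited values (-0.19) or with 75th percentile centring (-0.24).

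Glycolysis did not move in 1 direction. Of 16 measured genes, 6 were lower, 8 higher and 2 not called, and the median of 0.37 turned to -0.27 with reference gene centring. Forms typical of muscle fell, with Eno3 at -5.29, Pgam2 at -4.81 and Pfkm at -3.90. Slc2a1, a glucose transporter (3.07), and the phosphofructokinases Pfkp (1.62) and Pfkl (1.51) were higher under every scaling run.

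Among normal tongues, Pdk4 and Ucp3 varied more than other members, with SDs of 0.91 and 0.62 against a median of 0.15. Normal 4 and normal 5 were the highest in both genes and normal 2 the lowest. These arrays were picked out after their values were seen.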
